A study of Homo sapiens with 12 samples.

Results

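The 32 genes described here carry out or control the synthesis of cholesterol and of fatty acids. They were taken as a named list, 24 sterol genes and 8 fatty acid genes, and matched by symbol among the 34227 genes listed for either cell line. The study sequenced RNA of 2 established lines, SCC15 and SCC25, of head and neck squamous cell carcinoma (HNSCC) from the oral cavity, labelled wild type. In each line, 3 libraries came from cells treated for 24 h with squamocin and 3 from cells given DMSO, the solvent, so 12 libraries were compared. Squamocin is an annonaceous acetogenin, a plant polyketide that inhibits respiratory Complex I, and the samples carry the name of that class, ACGs, as their treatment. The dose given in the study's methods for the 24 h treatments was 10 µg/mL. Each group is a culture of 1 cell line, and nothing in the labels says that its 3 libraries came from separate cultures, so the p-values measure only the spread between these libraries, which may be technical.

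Cells make sterols from acetyl-CoA through mevalonate and squalene, and make fatty acids from the same acetyl-CoA through malonyl-CoA. Both pathways are controlled by the sterol regulatory element binding proteins (SREBPs), transcription factors that are held in the membrane of the endoplasmic reticulum by SCAP and the INSIG proteins while sterol is plentiful, and that are cut free in the Golgi when it runs low. The product of SREBF2 is known mainly as an activator of sterol genes and the short product of SREBF1 as an activator of fatty acid genes, and both act at promoters beside the factors NF-Y, which binds CCAAT boxes, and SP1, which binds GC boxes.

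The promoters of 6 members are shown. INSIG1, HMGCS1 and MSMO1 carried the largest rises in SCC25, and STARD4 rose in SCC25 and was nearly absent from SCC15. SREBF2 encodes an SREBP, and ELOVL6 fell in both lines. Each promoter is the stretch of 250 bases before the RefSeq start site, 5′ to 3′ on the strand of the gene, in GRCh38.p14. Capitals mark matches on either strand to CCAAT and to TCACNCCAC, the core of the sterol regulatory element.
INSIG1, chr7:155297628-155297877, plus strand: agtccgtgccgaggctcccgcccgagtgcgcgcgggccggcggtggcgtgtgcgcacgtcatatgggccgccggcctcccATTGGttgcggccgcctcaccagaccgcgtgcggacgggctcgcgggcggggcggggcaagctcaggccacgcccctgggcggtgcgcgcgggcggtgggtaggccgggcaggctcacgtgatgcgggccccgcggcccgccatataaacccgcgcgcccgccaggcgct
HMGCS1, chr5:43313413-43313662, minus strand, the upstream of 2 start sites: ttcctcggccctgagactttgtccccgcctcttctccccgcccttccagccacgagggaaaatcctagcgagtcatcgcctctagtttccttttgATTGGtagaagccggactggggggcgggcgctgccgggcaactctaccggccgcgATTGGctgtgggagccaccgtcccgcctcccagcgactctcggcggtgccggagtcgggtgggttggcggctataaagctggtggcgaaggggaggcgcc
MSMO1, chr4:165327419-165327668, plus strand: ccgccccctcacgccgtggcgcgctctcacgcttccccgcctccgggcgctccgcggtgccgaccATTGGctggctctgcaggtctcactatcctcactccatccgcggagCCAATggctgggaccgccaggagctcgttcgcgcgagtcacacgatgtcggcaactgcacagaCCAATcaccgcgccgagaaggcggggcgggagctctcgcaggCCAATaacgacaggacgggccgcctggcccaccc
STARD4, chr5:111512536-111512785, minus strand: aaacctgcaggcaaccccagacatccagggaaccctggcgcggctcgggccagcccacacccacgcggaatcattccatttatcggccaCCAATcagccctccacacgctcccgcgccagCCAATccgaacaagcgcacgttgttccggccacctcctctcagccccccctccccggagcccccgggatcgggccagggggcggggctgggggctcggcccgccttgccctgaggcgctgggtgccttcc
SREBF2, chr22:41832855-41833104, plus strand: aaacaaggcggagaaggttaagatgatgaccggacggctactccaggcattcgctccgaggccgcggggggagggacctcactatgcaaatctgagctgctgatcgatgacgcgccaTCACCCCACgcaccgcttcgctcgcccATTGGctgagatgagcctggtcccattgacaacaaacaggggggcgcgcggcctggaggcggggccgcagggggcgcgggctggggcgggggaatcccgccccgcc
ELOVL6, chr4:110198616-110198865, minus strand: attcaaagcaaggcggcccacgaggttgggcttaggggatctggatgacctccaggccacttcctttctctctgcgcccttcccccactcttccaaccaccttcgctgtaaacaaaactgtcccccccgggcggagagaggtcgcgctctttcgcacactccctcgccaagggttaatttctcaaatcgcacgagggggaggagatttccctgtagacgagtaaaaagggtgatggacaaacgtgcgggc
MSMO1 held 4 CCAAT matches, HMGCS1 and STARD4 held 2 each, INSIG1 and SREBF2 held 1 each and ELOVL6 held 0. The only match to the sterol regulatory element core was in SREBF2.

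RefSeq promoters, each running from 250 bases before to 50 bases after a start site, were found for 28 members, with 38 start sites. FASN, ACAT2, SQLE and FDFT1 had no entry. CCAAT was present in a promoter of 16 of 21 sterol genes and 4 of 7 fatty acid genes. Counted by start site this was 18 of 27 and 6 of 11, against 34.6% of the 35116 promoters in the table. The GC box GGGCGG was present in 25 of 27 sterol and 9 of 11 fatty acid promoters, against 45.0% of all. TCACNCCAC was present in 1 of the 38, against 1.13% of all. A match is a run of letters in this window and was not tested as a binding site, and the 3 motifs could share letters only at their ends. Only exact matches within this window were counted, so a promoter without a match was not shown to lack a binding site.

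The libraries held between 16665563 and 22748845 reads on genes. Values are reads divided by the size factor of the library, called normalized counts here. Their totals were 15466464 to 15535484 with DMSO and 20467856 to 24626253 with squamocin in SCC15, and 18245022 to 18333723 against 20917114 to 21265099 in SCC25. Squamocin replicate 3 of SCC15 stood apart from the other libraries of its group, with a chi-square per degree of freedom of 69.4 and 61.3 against replicates 1 and 2, where other pairs within a group lay between 1.74 and 10.9. Member calls that changed without it are named, and other values are those of all libraries unless said otherwise. The labelled squamous origin showed in SCC25, which passed the minimum mean of 10 normalized counts for all 10 squamous markers in the list used, TP63 among them at 4474, 4596 and 4466 with DMSO. In SCC15 the keratin KRT17 was high at 112298 ± 3086, while KRT14 stood far lower at 759 ± 8.06 (SD, n = 3). TP63, KRT5, EPCAM and DSG3 were near 0 there, with DMSO means of 17.5, 9.50, 11.4 and 1.44 normalized counts. By the test described in the next paragraph, 3 of the 8 squamous markers that could be tested in SCC15 rose and 0 fell, and 6 of 10 rose and 3 fell in SCC25. KRT17 rose in both (log2 1.17 and 1.60). Of 10 markers of blood, vessel, stroma and pigment cells, 4 could be tested in SCC15, where 0 rose and 1 fell, and 7 in SCC25, where 1 rose and 4 fell. The endothelial marker PECAM1 fell in both, from a mean of 166 to 72.0 normalized counts in SCC15 and from 75.3 to 2.38 in SCC25. The part of these markers in the results was not tested. Each group is a culture of 1 cell line, so these counts are not read as shares of other cell types. In bulk libraries, fewer cells with a transcript and less of it per cell cannot be told apart.

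Treatments were compared within each line with limma, after adding 1 to the normalized count and taking log2, and a gene was said to rise or fall where the Benjamini-Hochberg adjusted p over all genes tested in that line was under 0.05. Fold changes are on this scale and understate the change of weakly expressed genes. Of the 31 members tested in SCC15, 16 rose, 3 fell and 12 did not pass, where 30.9% of all 15902 genes tested rose and 30.0% fell, 61.0% in all. Of the 32 members in SCC25, 18 rose, 11 fell and 3 did not pass, where 38.3% of 16539 genes rose and 38.5% fell, 76.8% in all. All squamocin libraries lay above all DMSO libraries for 16 members in SCC15 and 18 in SCC25, where 35.7% and 39.4% of genes did so. They lay below for 4 and 11 members, where 34.9% and 39.6% of genes did so. The sterol genes account for most of the rises. In SCC15, 14 of 23 sterol genes rose and 0 fell, with a median log2 fold change of 0.48. In SCC25, 17 of 24 rose and 4 fell, with a median of 0.64. Of the 8 fatty acid genes, 1 rose and 7 fell in SCC25 (median -0.50), while in SCC15 the 2 rises and 3 falls (median -0.18) lay near the shares of all genes. The median of all genes tested was 0.012 in SCC15 and -0.015 in SCC25. A rise of at least 2-fold was found for 8 sterol genes in SCC15, where 12.6% of all genes had one, and for 11 in SCC25, where 13.9% had one. A fall of at least 2-fold was found for 0 sterol genes in either line, where 14.6% and 17.0% of all genes had one. Without squamocin replicate 3 of SCC15, 17 sterol genes rose and 1 fell (median 0.61) and 3 fatty acid genes rose and 3 fell (median -0.036), where 38.0% of 16001 genes rose and 37.6% fell.

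**Figure D1:**
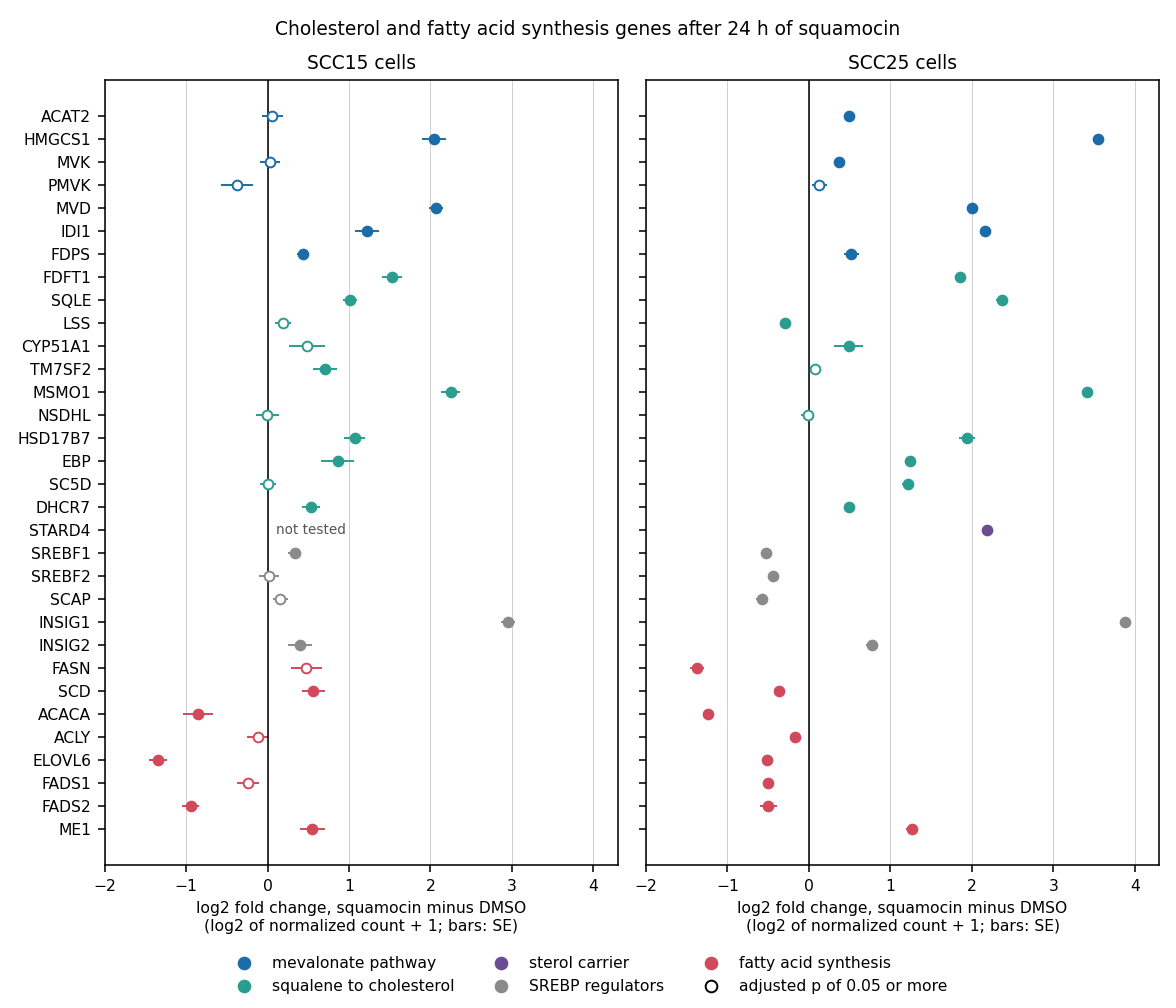
Log2 fold change of each member, squamocin minus DMSO (x axis, log2 of normalized count plus 1), in SCC15 and SCC25 cells, 3 libraries per group. Points are limma estimates with SE bars, colours give the role and open points have an adjusted p of 0.05 or more. INSIG1, HMGCS1 and MSMO1 lie farthest to the right in SCC25, between 3.41 and 3.88, and most fatty acid genes lie left of 0.

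Among the 7 genes of the mevalonate pathway, HMGCS1, MVD and IDI1 rose by at least 2-fold in both lines and FDPS rose by less. HMGCS1 (ENSG00000112972, chr5:43289395-43313512, minus strand, GRCh38 as deposited), the synthase that makes HMG-CoA, measured 1662, 1699 and 1664 normalized counts in the 3 DMSO libraries of SCC15 and 8556, 6831 and 5681 with squamocin. In SCC25 it measured 970.3, 992 and 947 with DMSO and 10511, 10811 and 12838 with squamocin. The groups did not overlap in either line, and the lowest squamocin library was several times the highest DMSO library. HMGCS1 rose 4.13-fold in SCC15 (log2 2.05 ± 0.15, SE, limma adjusted p = 4.62e-05) and 11.7-fold in SCC25 (log2 3.55 ± 0.065, limma adjusted p = 2.97e-13).

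MVD, the decarboxylase that makes isopentenyl diphosphate, measured 1218, 1251 and 1288 with DMSO and 5407, 4865 and 5481 with squamocin in SCC15. The SCC25 libraries held 901, 902 and 793 and 3388, 3222 and 3849 counts of MVD. Its rise was of like size in both lines, 4.19-fold and 4.02-fold, with no overlap between treatments. IDI1, which isomerises that product, went from 566, 556 and 574 to 1197, 1135 and 1682 in SCC15, where squamocin replicate 3 was the highest. In SCC25 IDI1 went from 469, 482 and 471 to 2196, 2041 and 2164, and the squamocin libraries lay close together. The log2 fold change was 1.22 ± 0.15 in SCC15 and 2.17 ± 0.053 in SCC25, both past the threshold.

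The other mevalonate genes moved less or did not pass. FDPS, which makes farnesyl diphosphate, rose 1.35-fold in SCC15 and 1.43-fold in SCC25. The thiolase gene ACAT2 rose 1.41-fold in SCC25 and stood at 0.06 ± 0.13 on the log2 scale in SCC15, which did not pass. The mevalonate kinase gene MVK likewise rose 1.29-fold in SCC25 and stood at 0.029 ± 0.12 in SCC15. PMVK, the phosphomevalonate kinase between MVK and MVD, passed in neither line, at -0.38 ± 0.20 and 0.13 ± 0.10. Without squamocin replicate 3 of SCC15 its value there was -0.61 and passed (limma adjusted p = 1.03e-05). With library totals set equal in place of the size factors, ACAT2, MVK and FDPS in SCC15 turned to -0.44, -0.47 and -0.063, the first 2 of them past the threshold.

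Past farnesyl diphosphate, 7 of 11 genes rose in SCC15 and 0 fell, where 30.9% of all genes rose and 30.0% fell. In SCC25, 8 of the 11 rose and 1 fell, where 38.3% of all genes rose and 38.5% fell. MSMO1 (ENSG00000052802, chr4:165327623-165343160, plus strand, GRCh38 as deposited), a C4-methyl sterol oxidase, had the largest rise among these 11. It measured 749, 805 and 739 with DMSO and 3595, 3154 and 4218 with squamocin in SCC15. In SCC25 MSMO1 measured 1098, 1084 and 1075 with DMSO and 11377, 11409.7 and 11917 with squamocin, and neither line showed an overlap. The rises were 4.75-fold (log2 2.25 ± 0.12, limma adjusted p = 1.58e-05) and 10.6-fold (log2 3.41 ± 0.04, limma adjusted p = 7.91e-15).

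FDFT1 and SQLE, which make squalene and its epoxide, rose in both lines without overlap. FDFT1 went from 1433, 1603 and 1571 to 3954, 4141 and 5247 in SCC15. In SCC25 it went from 1982, 1961 and 1985 to 6848, 6665 and 8029. These are rises of 2.88-fold and 3.62-fold, with log2 fold changes of 1.52 ± 0.12 and 1.86 ± 0.061. SQLE, the squalene epoxidase, went from 711, 713 and 725 to 1544, 1469 and 1333 in SCC15. In SCC25 SQLE went from 573, 589 and 629 to 3015, 2831 and 3456. The rise of SQLE was 2.02-fold in SCC15 and 5.17-fold in SCC25, with no overlap in either line.

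HSD17B7, the ketosteroid reductase that completes C4 demethylation, had the lowest counts of the genes with at least a 2-fold rise in both lines. It measured 151, 158 and 133 with DMSO and 352, 284 and 297 with squamocin in SCC15. In SCC25 it measured 122, 123 and 143 and 509.7, 458 and 537. The rises of 2.1-fold and 3.85-fold passed, with no overlap. EBP, the sterol isomerase, measured 1018, 1071 and 979 with DMSO in SCC15 and 1554, 1557 and 2659 with squamocin, where replicate 3 was far above the other 2. The SCC25 values of EBP were 693, 685 and 687 and 1651, 1635 and 1589. EBP rose 1.82-fold in SCC15 and 2.36-fold in SCC25. With equal library totals the SCC15 rise of EBP no longer passed (log2 0.37, limma adjusted p = 0.0636).

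SC5D, the lathosterol desaturase, is described per library after its values were seen, because it passed in 1 line and had a fold change near 0 in the other. Its counts in SCC15 were 1150.0, 1131 and 1133 with DMSO and 1086, 1071 and 1278 with squamocin, and the groups overlapped. In SCC25 they were 423, 392 and 423 and 956, 897 and 1024, a rise of 2.32-fold. Of the remaining genes, DHCR7, the last reductase of the pathway, rose 1.44-fold and 1.41-fold. The C14 reductase gene TM7SF2 rose 1.63-fold in SCC15 and stood at 0.079 ± 0.073 in SCC25. With equal library totals the SCC15 rises of DHCR7 and TM7SF2 no longer passed (log2 0.033 and 0.21). LSS, the cyclase that makes lanosterol, was the only enzyme of the sterol pathway to fall with the authors' size factors, 1.23-fold in SCC25, and stood at 0.19 ± 0.10 in SCC15, where it passed as a rise without squamocin replicate 3 (log2 0.27). NSDHL, the C4 decarboxylating dehydrogenase that works between MSMO1 and HSD17B7, lay at -0.0026 ± 0.14 and -0.014 ± 0.081 and passed in neither line. The lanosterol demethylase gene CYP51A1 had nearly the same estimate in both lines, 0.48 ± 0.22 and 0.49 ± 0.18, and passed in SCC25 alone. CYP51A1 in SCC15 passed without squamocin replicate 3 (log2 0.73) and with DESeq2 on all libraries (log2 0.54, DESeq2 adjusted p = 0.0466). In SCC25 it no longer passed without squamocin replicate 3 (log2 0.25) or without DMSO replicate 2 or 3 (0.46 and 0.48).

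STARD4, a carrier that moves cholesterol between membranes, is also described after its values were seen. It was nearly absent from SCC15, with 0.853, 2.37 and 4.36 normalized counts in the DMSO libraries and 1 read in 1 of the 3 squamocin libraries, and was not tested there. In SCC25 it measured 937, 856 and 889.6 with DMSO and 4183, 3977 and 4067 with squamocin. The SCC25 rise was 4.55-fold (log2 2.19 ± 0.049, limma adjusted p = 1.33e-12).

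**Figure D2:**
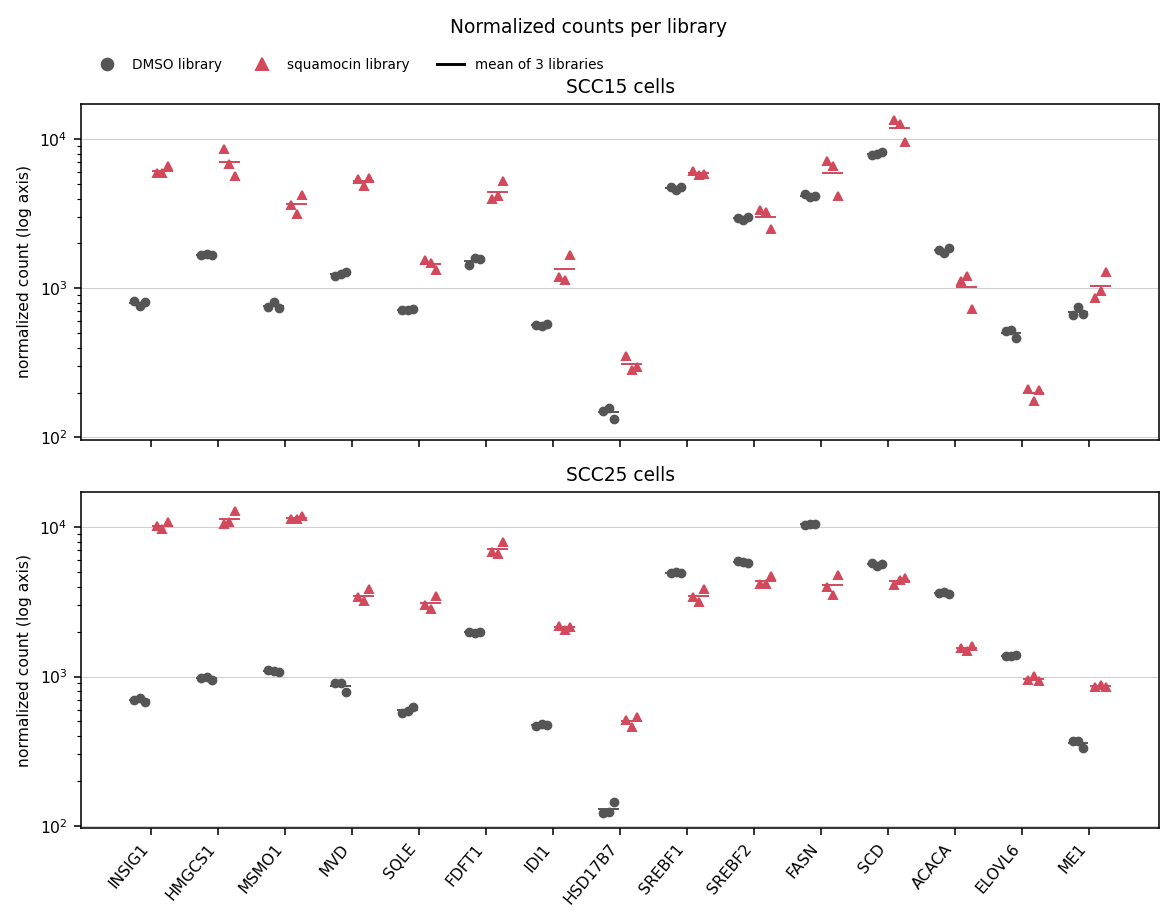
Normalized counts (y axis, log scale) of 15 members in each of the 12 libraries, by cell line. Circles are DMSO libraries, triangles squamocin libraries and bars the mean of 3. The groups of INSIG1, HMGCS1 and MSMO1 lie far apart in both lines, FASN falls to between 3519 and 4779 in SCC25, and squamocin replicate 3 of SCC15 lies below the other 2 for FASN, SCD, ACACA and SREBF2.

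The 5 regulators split. INSIG1 (ENSG00000186480, chr7:155297776-155310235, plus strand, GRCh38 as deposited), which retains SCAP and is itself a sterol-responsive gene, had the largest rise of all members in both lines. It measured 825, 761 and 809 with DMSO and 5925, 5958 and 6613 with squamocin in SCC15. In SCC25 INSIG1 went from 696, 715 and 677 to 10274, 9756 and 10820.0. No squamocin library came near a DMSO library, and the rises were 7.71-fold (log2 2.95 ± 0.086, limma adjusted p = 3.2e-06) and 14.7-fold (log2 3.88 ± 0.048, limma adjusted p = 1.15e-14). INSIG2, its paralog, rose 1.7-fold in SCC25 and 1.32-fold in SCC15. The SCC15 call of INSIG2 rested close to the threshold (limma adjusted p = 0.0481) and was lost without squamocin replicate 1 or without any 1 of the DMSO libraries (adjusted p from 0.0644 to 0.161) and with TMM factors (adjusted p = 0.0636), and with equal library totals its value was -0.10.

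SREBF1 (ENSG00000072310, chr17:17810399-17837002, minus strand) encodes SREBP-1, and its counts in SCC15 were 4802, 4559 and 4759 with DMSO and 6139, 5775 and 5882 with squamocin. In SCC25 they were 4943, 4998 and 4961 and 3392, 3147 and 3879. The groups did not overlap in either line, but the directions were opposite, a rise of 1.26-fold in SCC15 and a fall of 1.44-fold in SCC25. The SCC15 rise was lost without DMSO replicate 2 (limma adjusted p = 0.0558) and turned to -0.16 with equal library totals. Such opposite calls between the lines were found for 10.1% of the genes tested in both, and for 2 of the 31 members, SREBF1 and SCD. SREBF2, which encodes SREBP-2, measured 2977, 2872 and 3006 with DMSO and 3327, 3249.8 and 2481 with squamocin in SCC15, where squamocin replicate 3 lay below all others. In SCC25 SREBF2 fell from 5948, 5863 and 5784 to 4183, 4143 and 4704, or 1.35-fold. Its SCC15 value of 0.02 ± 0.12 did not pass, and without that library it passed as a rise (log2 0.16). SCAP, the escort of both proteins, fell 1.49-fold in SCC25 and stood at 0.16 ± 0.092 in SCC15.

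Of the fatty acid genes, ACACA, ELOVL6 and FADS2 fell in both lines and ME1 rose in both. Both falling together was the case for 18.6% of the 14454 genes tested in both lines, and both rising for 22.1%. ACACA encodes acetyl-CoA carboxylase 1, which commits acetyl-CoA to fatty acids. Its counts went from 1816, 1720.4 and 1852 to 1114, 1204 and 732 in SCC15, where squamocin replicate 3 was the lowest. The SCC25 libraries went from 3650.0, 3684 and 3587 to 1553, 1483 and 1598. ACACA fell 1.81-fold (limma adjusted p = 0.00494) and 2.36-fold (limma adjusted p = 9.56e-11), with no overlap.

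ELOVL6 elongates palmitate to stearate. It measured 519, 523 and 466 with DMSO and 209.8, 177 and 208 with squamocin in SCC15. In SCC25 it measured 1373, 1368 and 1393 and 953, 1015 and 934. The falls were 2.53-fold and 1.43-fold, and ELOVL6 was the only member to fall by at least 2-fold in SCC15. FADS1 and FADS2 encode the delta-5 and delta-6 desaturases. From first to last base, introns included, the 2 genes share 29694 bases on opposite strands of chromosome 11. FADS2 fell 1.92-fold in SCC15 and 1.41-fold in SCC25. FADS1 fell 1.41-fold in SCC25 and stood at -0.24 ± 0.14 in SCC15. The 2 genes were counted apart, but no strand setting is given, so how reads in any shared exon were assigned is not known. By the same measure, introns included, 20 members overlap another listed gene, 18 of them one on the opposite strand.

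FASN (ENSG00000169710, chr17:82078333-82098332, minus strand, GRCh38 as deposited), the fatty acid synthase, differed most between the lines and is given per library after its values were seen. In SCC15 it measured 4291, 4107 and 4146 with DMSO and 7143, 6592 and 4176 with squamocin. The first 2 squamocin libraries lay well above DMSO and replicate 3 lay among the DMSO values, and the difference did not pass (log2 0.48 ± 0.19, limma adjusted p = 0.0643). Without replicate 3 FASN passed as a rise in SCC15 (log2 0.71), as it did with edgeR and DESeq2 on all libraries, and with equal library totals it stood at -0.022. In SCC25 it fell from 10439.9, 10546 and 10519.5 to 3957, 3519 and 4779, or 2.59-fold (limma adjusted p = 8.76e-09).

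SCD, the stearoyl-CoA desaturase, was called in opposite directions. Its SCC15 counts were 7795, 7969 and 8188 with DMSO and 13543, 12682 and 9541 with squamocin. In SCC25 they were 5789, 5531 and 5657 and 4085, 4460.1 and 4591. SCD rose 1.48-fold in SCC15 and fell 1.29-fold in SCC25, and once library totals were set equal its value in SCC15 was 0.065 and did not pass. ACLY, the citrate lyase that supplies cytosolic acetyl-CoA to both pathways, fell 1.13-fold in SCC25 and stood at -0.12 ± 0.13 in SCC15.

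ME1, the cytosolic malic enzyme that supplies NADPH, was the only fatty acid gene to rise in both lines. It measured 665, 753 and 670.4 with DMSO and 859, 959.8 and 1283 with squamocin in SCC15, with squamocin replicate 3 the highest. The SCC25 values were 372, 369.7 and 334 and 845, 884 and 849. The rises were 1.46-fold and 2.4-fold. In SCC15 the call of ME1 was lost without DMSO replicate 1 or 3 (limma adjusted p = 0.0613 and 0.06) and with equal library totals (log2 0.053).

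The sterol genes were set against the fatty acid genes within each library, where the scaling of the library cancels. Relative to the DMSO mean of its line, the sterol median less the fatty acid median was 0.59, 0.47 and 0.86 on the log2 scale in the squamocin libraries of SCC15. In SCC25 it was 1.15, 1.11 and 1.31. In the 6 DMSO libraries it lay between -0.012 and 0.014, so all 6 squamocin libraries lay above all DMSO libraries. The DMSO values lie about 0 by construction, since each gene was taken relative to its DMSO mean. These medians per library include STARD4 in SCC15, which was not tested there. The exact permutation test over 3 against 3 libraries cannot go below p = 0.1 and was not used. Between the medians of the fold changes, the distance was 0.67 in SCC15 and 1.14 in SCC25. Over the settings tried it stayed between 0.64 and 0.75 and between 1.12 and 1.17. Scaling and the replicate block could hardly move it by construction, and the ends of both ranges came from leaving out single libraries.

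How far the sterol genes rose depends on the scaling. With equal library totals the median of all genes tested moved to -0.48 in SCC15 and -0.22 in SCC25, and of the genes called, 22.7% rose in SCC15 in place of 50.8%, and 39.1% in SCC25 in place of 49.9%. The sterol median lay 0.47 above that of all genes in SCC15 under both scalings, and 0.66 above it in SCC25. The fatty acid median lay 0.19 or 0.20 below that of all genes in SCC15 and 0.48 below it in SCC25. A scaling shifts all genes of a library alike, so these distances could not change beyond the effect of the added 1. Counted from 0, the sterol genes of SCC15 then gave 8 rises and 7 falls and the fatty acid genes 0 rises and 5 falls. The 8 rises were the 8 genes with at least a 2-fold rise, HMGCS1, MVD, IDI1, FDFT1, SQLE, MSMO1, HSD17B7 and INSIG1. The 7 falls were those of ACAT2, MVK, PMVK, NSDHL, SC5D, SREBF2 and SCAP, and ACLY and FADS1 joined the falling fatty acid genes, where 14.8% of all genes rose and 50.5% fell. In SCC25 the sterol genes gave 16 rises and 5 falls and the fatty acid genes 1 rise and 7 falls, where 30.4% rose and 47.4% fell, with CYP51A1 no longer a rise (log2 0.28) and NSDHL now a fall (log2 -0.22).

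**Figure D3:**
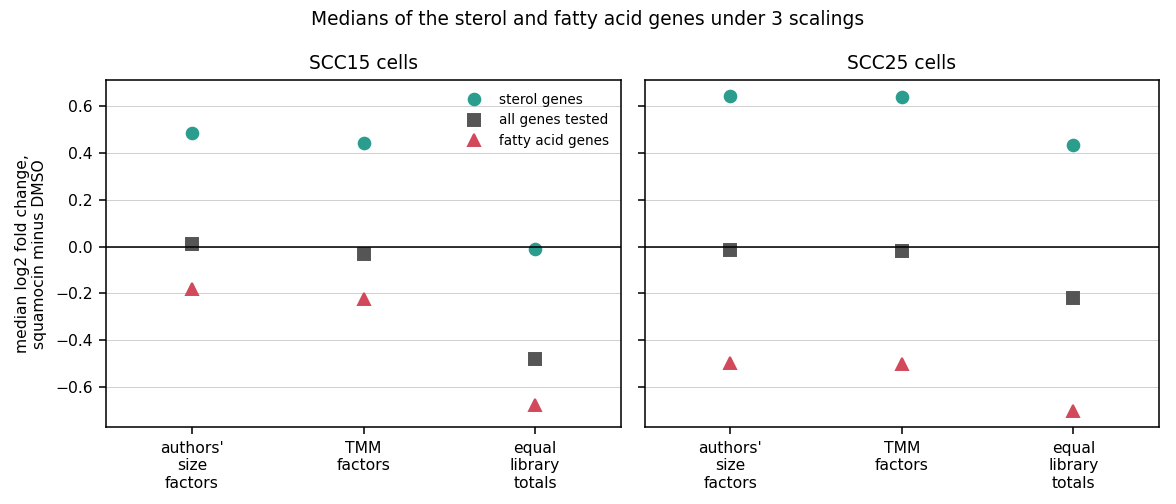
Median log2 fold change, squamocin minus DMSO (y axis), of the sterol genes, the fatty acid genes and all genes tested, with the authors' size factors, TMM factors and equal library totals (x axis), in SCC15 and SCC25 cells. The 3 medians move down together with equal totals, and the sterol median of SCC15 reaches -0.011. The distances between the 3 medians stay within 0.01 by construction, since a scaling shifts all genes of a library alike.

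Levels were also compared between genes, as normalized counts per kilobase of exon (mean ± SD, n = 3). With DMSO, fatty acid genes led in both lines. In SCC15 SCD stood first at 1522 ± 37.5 and ACLY second at 627 ± 2.03. In SCC25 FASN stood first at 1127 ± 5.92 and SCD second at 1079 ± 24.6, and these neighbours lay close together. With squamocin the order of SCC25 was led by sterol genes, MSMO1 at 4056 ± 106, INSIG1 at 2817 ± 146 and HMGCS1 at 1718 ± 191, which had ranked 8, 15 and 21 of 32 with DMSO. FASN fell from rank 1 to rank 16, at 438 ± 68.7. In SCC15 SCD stayed first with squamocin at 2273 ± 402, followed by INSIG1 at 1689 ± 106 and MSMO1 at 1282 ± 187. Exonic length came from GENCODE release 44 for all 32 members, and levels of the 2 lines were scaled apart and are not compared with each other.

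The response was tested for a difference between the lines as the SCC15 log2 fold change less the SCC25 one. It differed for 18 of the 31 members, where 52.2% of 14454 genes did. The response was lower in SCC15 for 11 members (26.0% of all genes) and higher for 7 (26.1%). Among the sterol genes that rose at least 2-fold in both lines, HMGCS1 (-1.50 ± 0.17), SQLE (-1.36 ± 0.12), MSMO1 (-1.17 ± 0.13), IDI1 (-0.95 ± 0.17), INSIG1 (-0.94 ± 0.10) and HSD17B7 (-0.87 ± 0.17) rose less in SCC15. For MVD and FDFT1 the differences of 0.058 ± 0.12 and -0.33 ± 0.15 did not pass, but that of FDFT1 passed with TMM factors (-0.37), with equal library totals (-0.62) and without squamocin replicate 3 of SCC15 (-0.46). SC5D also differed (-1.21 ± 0.12). The response of SREBF1, SCAP and SREBF2 was higher in SCC15, by 0.86, 0.73 and 0.46. So was that of FASN (1.85 ± 0.23) and SCD (0.93 ± 0.15), while ELOVL6 (-0.83 ± 0.12), ME1 (-0.71 ± 0.17) and FADS2 (-0.45 ± 0.15) were lower there. Without squamocin replicate 3 of SCC15, 26 members differed, where 65.9% of 14496 genes did. The 8 that passed in addition were MVK (-0.43), PMVK (-0.73), FDFT1, EBP (-0.63) and INSIG2 (-0.52), which were lower in SCC15, and ACACA (0.60), FADS1 (0.42) and ACLY (0.18), which were higher. With all libraries the difference of ACACA was 0.38 ± 0.20 and that of EBP -0.37 ± 0.22.

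Related genes outside the 32 were counted by list, to be read against the 30.9% of all genes that rose and 30.0% that fell in SCC15 and the 38.3% and 38.5% in SCC25. Of the genes for SREBP cleavage and INSIG turnover, 3 rose and 4 fell of 11 in SCC15, and 5 rose and 3 fell in SCC25. The sterol transport and LXR genes gave 4 rises and 1 fall of 14 in SCC15 and 6 rises and 7 falls in SCC25. In the isoprenoid branch, which draws farnesyl diphosphate away from sterols, 5 rose and 3 fell of 13, and 7 rose and 3 fell. Further fatty acid enzymes gave 7 rises and 6 falls of 23 in SCC15 and 13 rises and 8 falls in SCC25. Of the glycerolipid genes, 5 rose and 1 fell of 8 in SCC15 and 4 rose and 1 fell of 7 in SCC25. Fatty acid oxidation gave 3 rises and 4 falls of 12 in SCC15 and 5 rises and 5 falls of 11 in SCC25. Called in both lines with at least a 2-fold change in both were ACSS2, which makes acetyl-CoA from acetate (1.42 and 1.53), and RABGGTB, a subunit of the enzyme that prenylates Rab proteins (1.55 and 1.19). Lower in both were ACACB, the mitochondrial acetyl-CoA carboxylase (-1.67 and -1.81), and CPT2, which takes acyl groups into mitochondria for oxidation (-2.49 and -1.10). ACSS2 counts rose from 1184, 1170.2 and 1212 to 3388, 3180.3 and 2964 in SCC15 and from 1504, 1571 and 1625 to 4278, 4150.2 and 5185 in SCC25, without overlap in either line.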

How the data were processed

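The labels and the study's methods say that the authors aligned the reads with HISAT2 2.0.5 to GRCh38 and counted them per gene with featureCounts 1.5.0-p3. The deposited signal is a normalized count, each gene's reads over a size factor that the authors set for the library within its own line, so levels are not compared between lines. Columns with the log2 fold change and p-values of the authors' own comparison with DESeq2 1.16.1 were deposited beside it and were not used. Each library's size factor was recovered from its values, and 100% of the values came out as whole reads within 0.02 of a read. Intervals and test results on reads cover no bias of amplification, since the reads carry no molecular identifiers.

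Genes with a mean of at least 10 normalized counts were tested, two-sided, on log2 of the value plus a pseudocount of 1, with limma 3.58.1 (trended eBayes, R 4.3.3) and Benjamini-Hochberg adjustment over all genes tested in a line. The difference between lines was a contrast of the 4 group means. Also tried were a pseudocount of 0.1 or 10, no filter beyond a value above 0, a minimum of 10 in every library, scaling by TMM or to equal library totals, count models on the recovered reads (DESeq2 1.42.0, edgeR 4.0.16), a block for the replicate number, and leaving out single libraries. Levels per kilobase used the union of exons in GENCODE release 44, in place of a deposited gene length as first planned. The fits were tested on simulated data.

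The 32 members and the related lists were chosen with earlier results of these data known. Values per library are given for members called in both lines with at least a 2-fold change in 1 of them, for members called in opposite directions, and for SREBF1, SREBF2 and INSIG1. Genes of the 6 related lists are named when called in both lines with at least a 2-fold change in both. FASN, SC5D, STARD4, the markers named and the per-library counts of ACSS2 were added after their values were seen. Some genes of the pathway are not reported here.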

Additional observations from a re-analysis of the deposited data

Results flagged for a closer look

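Differences are given here as the SCC15 log2 fold change less that of SCC25, by limma's contrast of the 4 groups (Benjamini-Hochberg adjusted p under 0.05 over 14454 genes). The squamocin response differed between SCC15 and SCC25 cells for 18 of the 31 members, where 52.2% of all genes did. Among the sterol enzymes it was lower in SCC15 for HMGCS1 (-1.50), SQLE (-1.36), SC5D (-1.21), MSMO1 (-1.17), IDI1 (-0.95), HSD17B7 (-0.87) and ACAT2 (-0.43), and higher for TM7SF2 (0.63) and LSS (0.49). Of the regulators, INSIG1 had the lower response in SCC15 (-0.94), and SREBF1 (0.86), SCAP (0.73) and SREBF2 (0.46) the higher. The fatty acid genes were split, with FASN (1.85) and SCD (0.93) higher in SCC15 and ELOVL6 (-0.83), ME1 (-0.71) and FADS2 (-0.45) lower.

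Most of these differences kept their direction and call when any single library was left out. Exceptions were ACAT2, whose adjusted p rose to between 0.0542 and 0.0595 without squamocin replicate 2 or DMSO replicate 2 of SCC15 or squamocin replicate 3 or DMSO replicate 2 of SCC25, and FADS2, whose adjusted p rose to between 0.0503 and 0.0698 without any of 6 libraries. With equal library totals LSS (0.20), TM7SF2 (0.34) and SREBF2 (0.17) no longer passed, with the direction kept.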

How the results depend on the processing

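With the authors' size factors replaced by equal library totals, 2357 genes rose and 8033 fell in SCC15, the sterol genes of that line gave 8 rises and 7 falls (median -0.011) and the fatty acid genes 0 and 5 (median -0.68), and the medians of SCC25 were 0.44 and -0.71. The SCC15 log2 fold changes that turned negative were ACAT2 -0.44, MVK -0.47, FDPS -0.063, LSS -0.31, CYP51A1 -0.011, SC5D -0.49, SREBF1 -0.16, SREBF2 -0.48, SCAP -0.34, INSIG2 -0.10 and FASN -0.022, and in SCC25 those of PMVK -0.078 and TM7SF2 -0.13. The differences between lines that turned were those of MVD -0.23, NSDHL -0.28, DHCR7 -0.25, ACLY -0.24 and FADS1 -0.029. The shift of all genes comes with the choice of scaling, and which of the scalings is nearer to the RNA content of the cells was not tested. With TMM factors the median of all genes tested in SCC15 moved from 0.012 to -0.031, and uncalled values near 0 turned with this shift. They were MVK -0.014, SC5D -0.039 and SREBF2 -0.023 in SCC15 and the differences of NSDHL -0.026 and DHCR7 -0.0022. Why TMM and the authors' size factors differ was not tested. The difference of CYP51A1 was 0.0046 with a pseudocount of 10, 0.0030 with edgeR and 0.00087 with DESeq2, and the sterol median of SCC15 was 0.54 with both tools.

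When single libraries were left out, the sterol median of SCC15 ranged from 0.44 to 0.61 and the fatty acid median of SCC25 from -0.51 to -0.43. Sterol genes that fell in SCC15 numbered 0 to 1, where 22.8% to 37.6% of all genes fell. Fatty acid genes that rose there numbered 1 to 3, where 24.8% to 38.0% of all genes rose. Log2 fold changes that took both signs were, in SCC15, ACAT2 -0.065 to 0.16, ACLY -0.22 to 0.011, MVK -0.061 to 0.12, NSDHL -0.10 to 0.094, SC5D -0.077 to 0.050 and SREBF2 -0.056 to 0.16, in SCC25 NSDHL -0.067 to 0.036, and among the differences ACLY -0.053 to 0.18, CYP51A1 -0.22 to 0.24, DHCR7 -0.045 to 0.14, FDPS -0.19 to 0.044 and NSDHL -0.087 to 0.11. Members that differed between the lines numbered 16 to 26, where 47.2% to 65.9% of all genes differed. Both highest values came without squamocin replicate 3 of SCC15.

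Libraries with the same replicate number did not deviate together (correlations of -0.051 to 0.0078 across genes), so the numbers do not pair the samples. With the replicate block, 13 sterol genes rose and 0 fell in SCC15, and 3 fatty acid genes rose and 3 fell. Of all 15902 genes tested there, 4665 rose and 4451 fell with the block. The members that differed between lines numbered 17 with the block, where 7089 of 14454 genes differed. FASN then passed as a rise in SCC15 (limma adjusted p = 0.0477), while INSIG2 in SCC15 (0.0522) and the difference of FADS2 (0.067) no longer passed. In SCC25 the 32 member calls were the same with the block, with either pseudocount, with either filter, with TMM factors, with edgeR and with DESeq2.

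With 3 libraries per group, a depth of 16665563 to 22748845 reads left STARD4 at 0 to 5 reads in SCC15, too few for a fold change. The strand setting of the counting is not given in the sources used here, and the RNA was measured at 1 dose and 1 time, so the order of the changes was not measured.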
